A study of Mus musculus with 42 samples.

Results

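RNA levels of 9 genes of the germline and of meiosis were examined in mouse embryonic stem cells: Stra8, Sycp3, Piwil4, Piwil2, Ddx4, Tdrd12, Mael, Dazl and Dppa3. They were taken by symbol from the deposited gene tables, which hold 8 of the 9 among 18825 genes in experiment 1 (Dppa3 has no row there) and 9 among 19866 genes in experiment 2. Stra8 and Piwil4 were chosen by their low measured RNA in the Trim71KO input of experiment 2, so that contrast is described here without a test. The rule for Stra8 and Piwil4 did not name experiment 1, which carries the tests of Trim71KO input. The genes were, however, chosen with earlier results of these data known.

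Stranded libraries were made of total RNA from whole lysates (input) and from the fraction held by anti-HA beads (IP). There are 14 groups of 3, or 42 libraries, all from 129S6/SvEvTac cells that carry the GFP_5xT71BS reporter and stably express FLAG-Cas9::T2A::Blasticidin. The untagged control has nothing further. The tagged line expresses HA-AVI-Tnrc6a, and the lines labelled Trim71KO (Trim71-/-) and Ago2KO (Ago2-/-) carry that tag as well. Ago2KO is present in experiment 2 only. The labels do not give the number of clones behind each line, so a difference between lines includes whatever else sets those lines apart. Cells were grown in triplicate per the series' design text, and p-values measure the spread between those dishes.

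The germline programme is largely silent in other cells. Its promoters are held down by DNA methylation and by a repressive Polycomb complex that is recruited through MGA-MAX at E-boxes (CACGTG) and E2F6 at E2F-type sites. Embryonic stem cells keep part of the programme transcribed at a low level. Stra8 is induced by retinoic acid in germ cells and is needed for entry into meiosis. Piwil2 and Piwil4 bind piRNAs, small RNAs that silence transposons, and Ddx4, Tdrd12 and Mael act in the same pathway. Tnrc6a, also called GW182, is the scaffold by which Argonaute proteins such as Ago2 recruit deadenylases to target mRNAs. Trim71, which stem cells express, binds RNA and represses its target mRNAs.

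Promoter windows were read from RefSeq (assembly GRCm38.p6), as the 250 bases before a transcript start given in its table, and 7 of the 9 genes had one. For Stra8 and Ddx4 that window lies inside the span of the RefSeq gene, which begins further upstream, and for Tdrd12 it lies partly inside. The windows of 4 genes are shown because they set side by side the gene that fell most (Stra8), a piRNA gene that fell (Piwil4), a meiosis gene that fell less (Sycp3) and a gene whose level did not pass the test (Mael). Capitals mark a match, on either strand, to CACGTG, to AGGTCA (a retinoic acid receptor half-site, TGACCT on the other strand) or to GGCGGGA (an E2F-type site, TCCCGCC on the other strand). The windows lie at chr6:34920698-34920947 (plus strand) for Stra8, chr9:14740673-14740922 (minus strand) for Piwil4, chr10:88459337-88459586 (plus strand) for Sycp3 and chr1:166238745-166238994 (minus strand) for Mael.
Stra8: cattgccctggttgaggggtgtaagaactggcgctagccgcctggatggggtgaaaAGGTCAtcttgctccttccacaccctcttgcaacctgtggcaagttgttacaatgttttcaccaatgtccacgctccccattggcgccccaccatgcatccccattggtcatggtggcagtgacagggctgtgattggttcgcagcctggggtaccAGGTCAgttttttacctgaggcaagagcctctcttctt
Piwil4: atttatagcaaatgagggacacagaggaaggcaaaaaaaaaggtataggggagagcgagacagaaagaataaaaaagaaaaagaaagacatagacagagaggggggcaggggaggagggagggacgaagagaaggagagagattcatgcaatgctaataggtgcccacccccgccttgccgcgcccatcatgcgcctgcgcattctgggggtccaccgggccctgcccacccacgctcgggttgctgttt
Sycp3: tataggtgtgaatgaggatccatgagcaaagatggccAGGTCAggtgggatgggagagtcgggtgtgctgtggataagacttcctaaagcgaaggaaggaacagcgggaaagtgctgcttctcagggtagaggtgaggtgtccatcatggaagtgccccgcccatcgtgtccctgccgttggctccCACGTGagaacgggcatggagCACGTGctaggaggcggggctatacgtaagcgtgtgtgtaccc
Mael: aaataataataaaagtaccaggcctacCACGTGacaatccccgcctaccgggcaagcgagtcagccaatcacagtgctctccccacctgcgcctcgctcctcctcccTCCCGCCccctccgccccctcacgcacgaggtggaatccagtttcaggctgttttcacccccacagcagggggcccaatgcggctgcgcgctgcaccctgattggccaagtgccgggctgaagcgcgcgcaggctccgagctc

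The Stra8 window holds 2 AGGTCA matches, and 14% of all 32851 RefSeq windows hold at least 1. The Sycp3 window holds 2 CACGTG matches and 1 AGGTCA match, against 6.02% of windows with CACGTG. Mael has 1 CACGTG and 1 GGCGGGA match (9.75% of windows have the latter), and so does Ddx4. None of the 3 motifs occurs in the windows of Piwil4, Dazl or Tdrd12. CG dinucleotides, the sites of DNA methylation, numbered 5 in Stra8, 5 in Tdrd12, 10 in Piwil4, 12 in Sycp3, 18 in Mael, 20 in Dazl and 31 in Ddx4, against a median of 6. Piwil4 and Tdrd12 each have a further window, with 0 and 6 CG, and their counts above are for the window nearest the annotated gene start. Ddx4, which fell in the comparison below, and Mael, which did not pass the test there, hold the same pair of motifs. These matches describe the windows only.

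Levels were compared between genes as CPM (counts scaled to the TMM-adjusted library size) per kilobase of the deposited gene length. In tagged input of experiment 1, Stra8 (34.5 ± 4.79, SD, n = 3) and Mael (30.9 ± 2.98) stood highest and their libraries overlapped. Ddx4 followed at 8.77 ± 0.591, and Dazl (6.5), Piwil2 (5.88), Tdrd12 (5.28) and Sycp3 (5.18) lay within their spread of each other. Piwil4 was lowest at 1.32 ± 0.138. In tagged input of experiment 2 the order was Stra8 at 49.2, Mael at 26.8, Dazl at 18.2 and Sycp3 at 11.2, followed by Ddx4 at 7.28, Piwil2 at 6.46 and Tdrd12 at 4.23. Piwil4 (1.61) and Dppa3 (1.08) closed it, and no 2 neighbours in that order overlapped. Dppa3 rested on few reads, from 4 to 32 counts per library, so its ratios are imprecise.

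Depth in experiment 1 was 12587257 to 23657840 counts a library, and in experiment 2 it was 16296447 to 21026552, with no stated molecular identifiers. Depth bears on counting error at most, while the SE values given come from the edgeR fit and include the spread between libraries. All 8 embryonic stem cell markers listed were present, with a summed input level of 5360 to 7381 CPM over all groups. The sum was higher in Trim71KO than in tagged input. It was 6549 to 6661 CPM against 5755 to 6003 CPM in experiment 1, and 7264 to 7381 CPM against 6178 to 6391 CPM in experiment 2. Ago2 RNA was lower in input labelled Ago2KO (158, 162 and 167 CPM) than in tagged input (321 to 390 CPM). Trim71 RNA was not lower in input labelled Trim71KO: it stood at 278 to 284 CPM against 227 to 265 CPM in tagged cells of experiment 1, and at 368 to 387 CPM against 265 to 309 CPM in experiment 2. The counts cover the whole gene and the labels do not say which bases differ, so the RNA level does not check this label, and every direction below is for cells labelled Trim71KO. Tagged input replicate 2 of experiment 1 stood apart from its group: its counts differed from replicate 1 by a chi-square of 28.2 per gene, against 8.27 between replicates 1 and 3, and Tnrc6a RNA was 57.1 CPM against 95.1 and 81.9. The calls for the 9 genes in experiment 1, the list counts and the genes named from the lists were refitted without it, and lost calls of the named genes are given. Replicates of the IP fraction differed more. The chi-square per gene reached 46.1 between Trim71KO IP replicates 1 and 3 of experiment 1, and 64.1 between tagged IP replicates 1 and 3 of experiment 2.

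Input RNA of most of these genes was lower in cells labelled Trim71KO than in tagged cells of experiment 1. Stra8 fell 7.01-fold and Piwil4 2.79-fold, and Sycp3, Tdrd12, Piwil2 and Ddx4 fell by less than 2-fold. Dazl and Mael did not pass the test. So 6 of 8 genes were called lower (edgeR's quasi-likelihood test, Benjamini-Hochberg adjusted over all 18772 genes), where 17.4% of all genes were called lower and 34% were called in either direction. The same 6 genes had groups that did not overlap, against 47.2% of all genes. The median log2 change was -0.75 over the 8 genes and -0.01 over all genes. Stra8 and Piwil4, chosen for their low RNA in the same contrast of experiment 2, are in these counts and in that median. Of the genes not chosen that way, Sycp3, Tdrd12, Piwil2 and Ddx4 were called lower, and Dazl and Mael were not.

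Among the meiosis genes, Stra8 stood at 53.9, 71.2 and 61.7 CPM in tagged input of experiment 1, at 54.4, 52.1 and 53.3 CPM in untagged input, and at 8.94, 9.21 and 8.50 CPM in Trim71KO input. Every Trim71KO library was far below every library of the other lines. The log2 change against tagged cells was -2.81 (SE 0.13, 95% interval -3.09 to -2.53, adjusted p = 1.92e-12), the 33rd lowest of 18772 genes, and -2.69 without tagged replicate 2. Sycp3, a component of the lateral element of the synaptonemal complex that holds paired chromosomes, was at 5.17, 8.95 and 5.53 CPM in tagged input and at 3.42, 2.55 and 4.47 CPM in Trim71KO input. The groups did not overlap, but the gap was narrow and tagged replicate 2 was the high library. Sycp3 fell by 0.91 on the log2 scale (SE 0.21, adjusted p = 0.00165), or by 0.61 without that library (adjusted p = 0.0289).

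Among the genes of the piRNA pathway, Piwil4, the nuclear Piwi protein that directs DNA methylation of transposons in fetal male germ cells, was at 6.52, 6.88 and 7.95 CPM in tagged input and at 2.32, 2.64 and 2.66 CPM in Trim71KO input. Untagged input, at 6.06, 4.62 and 6.09 CPM, was also above all 3 Trim71KO libraries. Piwil4 fell by 1.48 on the log2 scale (SE 0.20, adjusted p = 7.22e-06). Piwil2, its cytoplasmic partner, was at 35.3, 25.3 and 32.6 CPM in tagged and 19.15, 20.17 and 19.12 CPM in Trim71KO input, a fall of 0.67 (SE 0.12, adjusted p = 0.000114). Tdrd12, a Tudor protein needed to load Piwil4 with piRNAs, was at 23.6, 21.5 and 23.5 CPM against 12.2, 14.4 and 12.2 CPM, a fall of 0.82 (SE 0.14, adjusted p = 0.000116). For all of these genes the lowest tagged library lay above the highest Trim71KO library.

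Ddx4, the RNA helicase of germ granules, was at 27.3, 27.6 and 24.4 CPM in tagged input and at 17.6, 18.7 and 18.5 CPM in Trim71KO input of experiment 1, and fell by 0.53 on the log2 scale (SE 0.12, adjusted p = 0.0018). Mael, a protein of the same granules, was at 48.1, 58.4 and 54.0 CPM against 54.0, 51.0 and 49.0 CPM, and the groups overlapped. Its log2 change was -0.06 (95% interval -0.28 to 0.16, adjusted p = 0.69). Dazl, an RNA-binding protein that sets germ cells on course for gametogenesis, was at 23.1, 29.4 and 22.1 CPM against 22.3, 25.9 and 25.7 CPM, with a log2 change of -0.01 (95% interval -0.26 to 0.24, adjusted p = 0.96). For both genes the interval excludes a fall of the size seen for Ddx4. Without tagged replicate 2 their values were 0.02 and 0.14, and neither was called.

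**Figure D1:**
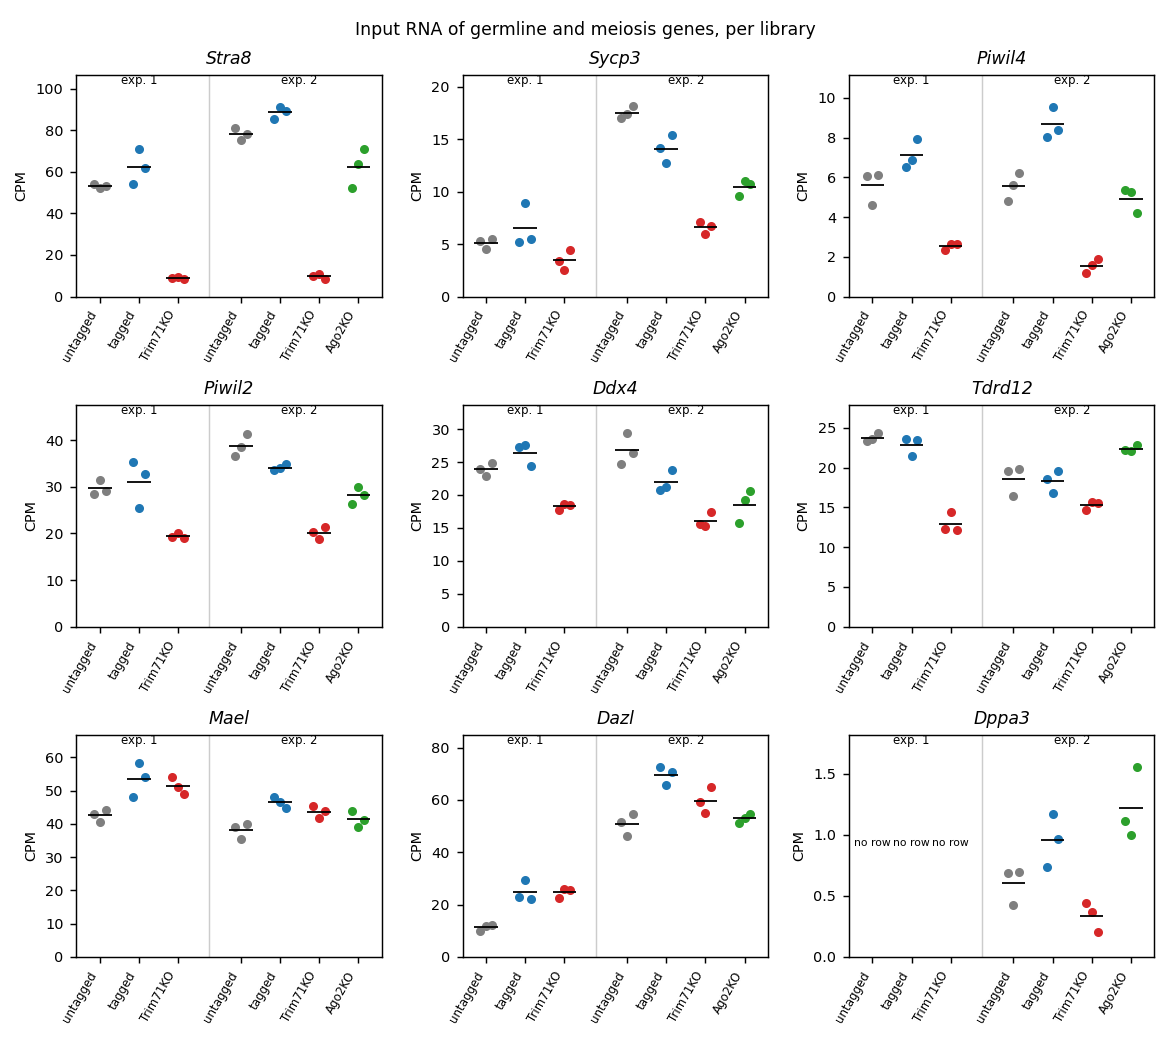
Input RNA of each gene, in CPM on a linear axis that starts at 0, for every library of both experiments. Points are libraries and bars are group means of 3 libraries. Stra8 in Trim71KO cells sits between 8.50 and 11.1 CPM in both experiments, below every other library, while Mael and Dazl in Trim71KO cells lie among or near the tagged libraries.

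In experiment 2 the same contrast supplied the choice of Stra8 and Piwil4, and its values are given as a description. Stra8 was at 85.6, 91.2 and 89.1 CPM in tagged and 10.1, 11.1 and 8.64 CPM in Trim71KO input (log2 change -3.16). Piwil4 was at 8.04, 9.55 and 8.37 CPM against 1.18, 1.58 and 1.88 CPM (log2 change -2.48, against -1.48 in experiment 1). Dppa3, a maternal factor also made by early germ cells that protects DNA methylation in the zygote, had 15, 22 and 20 counts in tagged and 9, 7 and 4 counts in Trim71KO input, with a log2 change of -1.48. Sycp3 was at 14.1, 12.8 and 15.4 CPM against 7.08, 5.96 and 6.71 CPM, a log2 change of -1.10 beside -0.91 in experiment 1. The log2 changes of the others in experiment 2 were -0.76 for Piwil2, -0.45 for Ddx4, -0.26 for Tdrd12, -0.22 for Dazl and -0.09 for Mael. The Mael groups overlapped and the rest did not, where 41.5% of all genes did not overlap, 27.2% were called and 13.7% were called lower. Tdrd12 stands out beside its experiment 1 value of -0.82, with 18.6, 16.9 and 19.5 CPM in tagged and 14.7, 15.7 and 15.6 CPM in Trim71KO input. The difference between the experiments in this contrast was not tested.

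**Figure D2:**
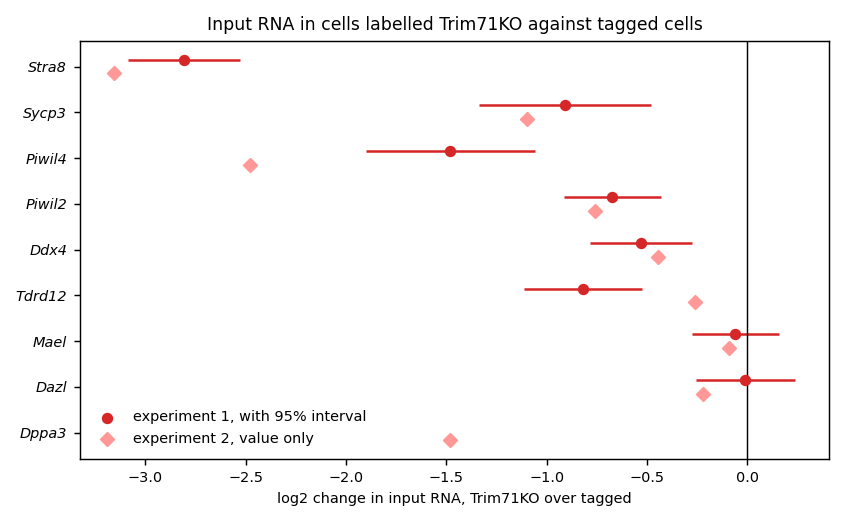
The log2 change of input RNA in cells labelled Trim71KO over tagged cells, for each gene. Circles are experiment 1 with the 95% interval of the edgeR fit, and diamonds are experiment 2, shown as values only. The intervals of Stra8 (-3.09 to -2.53) and Piwil4 lie furthest below 0, and those of Mael and Dazl include 0.

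Marker sums of other cell types were set beside these changes. In experiment 1 the primordial germ cell list (6 of 7 in the table) summed to 182 to 208 CPM in tagged and 224 to 241 CPM in Trim71KO input, and in experiment 2 (7 of 7) to 273 to 276 CPM and 253 to 264 CPM. None of its genes in the tables was at 0 in every library of a group. In experiment 1, 2 of the 6 were called higher and 0 lower. In experiment 2 the list holds Dppa3, itself among the germline genes examined and without a test in this contrast, so its calls are not counted there. Dppa3 stood at 0.740 to 1.17 CPM in tagged and 0.203 to 0.442 CPM in Trim71KO input, a small part of those sums. Of all genes, 16.5% were called higher and 17.4% lower in experiment 1, and 13.5% and 13.7% in experiment 2. Primitive endoderm markers (10 of 10) summed to 133 to 217 CPM in tagged and 94.3 to 102 CPM in Trim71KO input of experiment 1, where 7 of the 10 were called lower, with a median log2 change of -2.80. In experiment 2 (9 of 10) those sums were 66.8 to 85.5 CPM and 75.3 to 83.8 CPM, while 6 of the 9 were called lower and 1 higher, with a median of -1.24. Only 2 of 6 fibroblast markers were in the tables, at 22.6 to 24.5 CPM against 58.0 to 61.8 CPM in experiment 1 and at 34.2 to 35.8 CPM against 49.5 to 51.9 CPM in experiment 2. Neurectoderm markers (3 of 5) summed to 17.2 to 20.4 CPM in tagged and 12.1 to 14.6 CPM in Trim71KO input of experiment 1, and to 21.4 to 23.7 CPM and 12.3 to 17.0 CPM in experiment 2. Trophectoderm markers (4 of 7) summed to 18.1 to 18.6 CPM and 18.6 to 19.8 CPM in experiment 1, and to 17.6 to 23.3 CPM and 25.1 to 30.6 CPM in experiment 2. Of these 4, 1 was called higher in experiment 1 and 2 in experiment 2, with 0 lower. Of the 8 embryonic stem cell markers, 3 were called higher and 1 lower in experiment 1, and 5 higher and 0 lower in experiment 2. Markers of 2-cell-like cells were near 0, and in experiment 2 (3 of 7) summed to 1.63 to 2.18 CPM in tagged and 0.508 to 0.885 CPM in Trim71KO input. Their part in the changes of the germline genes was not tested, and in bulk RNA fewer cells of a type and less RNA per cell cannot be told apart.

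Other genes of each pathway, the 9 genes left out, moved both ways in Trim71KO input of experiment 1. The counts below stand against 17.4% of all genes called lower and 16.5% called higher there, and against 13.7% and 13.5% in experiment 2, whose counts are a description. Of 13 other piRNA pathway genes tested, 4 were called lower and 2 higher, or 4 and 1 without tagged input replicate 2. The 4 lower genes were not the same in both fits, since the call of Rnf17 (-0.29, adjusted p = 0.0213) was lost without that library (-0.24, adjusted p = 0.090). Tdrd5, a Tudor protein of the germ granules, went from 7.84 ± 0.927 CPM to 4.14 ± 0.473 CPM (SD, n = 3), a log2 change of -0.91 (adjusted p = 7.12e-05). Exd1 fell by 0.71 (adjusted p = 0.00187) and Tdrkh by 0.51 (adjusted p = 0.00204). Fkbp6, a co-chaperone of Piwi proteins, rose by 1.30 (adjusted p = 0.0195), from 5 to 12 counts per library up to 21 to 29 counts. Piwil1, the Piwi protein of later male germ cells, rose by 1.00 (adjusted p = 0.00886), a call lost without tagged input replicate 2 (0.78, adjusted p = 0.057). The list's median was -0.28. In experiment 2, 10 of 14 were called lower and 0 higher, and the median was -0.80, with Tdrd5 at -1.15, Fkbp6 at -0.16 and Piwil1 at -0.57, given as a description.

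Of 29 other meiosis genes tested in experiment 1, 8 were called lower and 4 higher, with a median of -0.12. Without tagged input replicate 2 the counts were 5 and 3. Meiob, which works in recombination, fell by 1.85 (adjusted p = 0.0103) on 12 to 18 counts per tagged library and 1 to 10 per Trim71KO library, and this call was lost without tagged input replicate 2 (-1.65, adjusted p = 0.050003). Sycp1, the transverse filament of the synaptonemal complex, fell by 1.51, from 8.96 ± 2.21 CPM to 3.17 ± 1.11 CPM (adjusted p = 1.2e-05). Hormad2, a chromosome axis protein, rose by 0.62, the cohesin subunit Smc1b by 0.55 and Ythdc2, which guards the switch from mitosis to meiosis, by 0.42. In experiment 2, 6 of 28 were called lower and 1 higher, and the values were -2.83 for Meiob and -0.22 for Sycp1, and 0.54 for Hormad2, 0.06 for Smc1b and 0.26 for Ythdc2. For Sycp1 the experiment 2 value was much nearer 0 than that of experiment 1, and the difference between the experiments was not tested.

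Of 14 other germ cell fate genes, 4 were called lower and 4 higher in experiment 1, or 3 and 4 without tagged input replicate 2. Prdm1, which starts the germ cell programme in the embryo, rose by 1.77 (from 1.49 ± 0.115 to 5.11 ± 0.626 CPM, adjusted p = 9.19e-06). Zbtb16, a factor of spermatogonial stem cells, rose by 1.72 (adjusted p = 0.000175), and Sohlh2, a transcription factor of germ cells, by 0.69. Brdt, a testis bromodomain protein, and Ifitm3, a membrane protein of early germ cells, each fell by 0.68, and the Brdt call was lost without that library (-0.67, adjusted p = 0.101). In experiment 2, 7 of 15 were called lower and 4 higher, with a median of -0.37, and the values were 1.17 for Prdm1, 1.38 for Zbtb16, 0.35 for Sohlh2, -1.5 for Brdt and -0.73 for Ifitm3.

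Of 18 other genes of retinoic acid response and metabolism, 3 were called lower and 1 higher in experiment 1, with a median of -0.13. Without tagged input replicate 2 these counts were 2 and 0. The receptors Rxrg and Rarg fell by 1.21 and 0.74, and Rara rose by 0.24 (adjusted p = 0.0206), a call lost without that library (0.22, adjusted p = 0.0628). Rarg stood at 220 CPM in tagged and 132 CPM in Trim71KO input there, but its experiment 2 value was 0.06. Rxrg and Rara were at -0.32 and -0.05 in experiment 2, where 6 of 19 genes were called lower and 2 higher, with a median of -0.32.

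Of 20 repressors of germline genes, 5 were called lower and 2 higher in experiment 1, with the same counts without tagged input replicate 2. Dnmt3a, a de novo DNA methyltransferase, fell by 0.99 (159 ± 11.5 to 80.3 ± 3.75 CPM, adjusted p = 3.21e-08), the heterochromatin protein Cbx3 by 0.68 and Max by 0.58. The H3K4 demethylase Kdm5c rose by 0.39 and the H3K9 methyltransferase Setdb1 by 0.33. In experiment 2, 1 of 20 was called lower and 8 higher, with a median of 0.19. There Dnmt3a was at -0.50, Cbx3 at 0.11, Max at 0.20, Kdm5c at 0.20 and Setdb1 at 0.26. Of these 5, Dnmt3a was lower in experiment 1 and had a negative value in experiment 2, while Cbx3 and Max had positive values there.

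**Figure D3:**
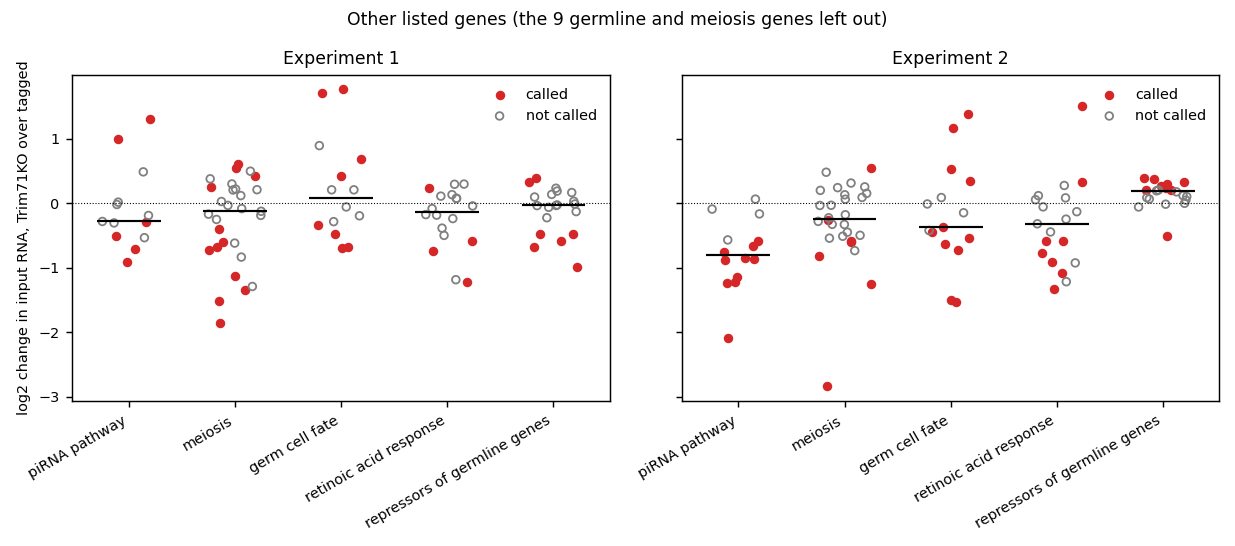
The log2 change of input RNA, Trim71KO over tagged, of the other listed genes in each experiment, one point per gene, with the 9 germline and meiosis genes left out. Filled points are genes called by edgeR over all genes and bars are list medians, which for the piRNA pathway are -0.28 in experiment 1 and -0.80 in experiment 2.

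Genes with the pattern most like Stra8 and Piwil4 were sought over the 12 input libraries of experiment 2, by the root mean square distance between centred log2 CPM profiles among 14242 genes. Gm5091 (0.29), Tfr2 (0.34) and Adgra2 (0.37) came closest to Stra8, against a median distance of 1.29. Tfr2 is a transferrin receptor and Adgra2 an adhesion G protein-coupled receptor. In experiment 1, which the search did not use, the log2 change in Trim71KO input was -2.97 for Gm5091 (SE 0.36, adjusted p = 1.51e-06), -1.47 for Adgra2 and -1.39 for Tfr2. 4933431E20Rik (0.29), H2-Q7 (0.30) and Gypc (0.31) came closest to Piwil4, against a median of 0.92. H2-Q7 is a class I histocompatibility gene and Gypc encodes a membrane glycoprotein of red blood cells. They fell by 0.76, 0.80 and 0.88 in experiment 1, each past the test (adjusted p = 0.00635, 0.00237 and 0.0140). All 6 genes were also called lower without tagged input replicate 2. Of all genes, 17.4% were called lower in experiment 1 with every library in the fit. The search included the Trim71KO libraries of experiment 2, where the log2 changes of the 6 ran from -3.08 (Tfr2) to -1.86 (4933431E20Rik).

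The tagged line itself differed from untagged cells at Dazl. In experiment 1 Dazl was at 9.73, 11.6 and 12.4 CPM in untagged input and at 23.1, 29.4 and 22.1 CPM in tagged input, with all tagged libraries above all untagged ones. The log2 change was 1.15 (SE 0.13, adjusted p = 2.73e-06), or 1.01 without tagged replicate 2. In experiment 2 it was at 51.4, 46.2 and 54.5 CPM against 72.6, 65.6 and 70.8 CPM, a log2 change of 0.46 (SE 0.07, adjusted p = 0.000605). Dazl was therefore higher in the tagged line both times, with no overlap between the lines. Mael was also higher, by 0.33 (adjusted p = 0.046) in experiment 1 and 0.28 (adjusted p = 0.0344) in experiment 2. In all, 2 of 8 genes were called in experiment 1, where 10.6% of all genes were, and 2 of 7 tested in experiment 2, where 1.39% were. The Mael call did not survive leaving out any single library of experiment 2 (adjusted p 0.0537 to 0.225). In experiment 1 it survived leaving out tagged replicate 1 alone, and the adjusted p ran from 0.0106 to 0.19. Stra8 and Piwil4 changed by 0.23 and 0.35 in experiment 1, neither past the test, and by 0.18 and 0.64 in experiment 2, given without a test. The Dazl change was smaller in experiment 2 than in experiment 1 by a joint fit (difference -0.67, SE 0.13, adjusted p = 0.00265), where 2.89% of all genes differed. These contrasts share the tagged input with the Trim71KO contrasts.

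In cells labelled Ago2KO, Sycp3, Ddx4 and Piwil2 were lower than in untagged cells, and Dazl and Sycp3 lower than in tagged cells. That line carries the tag, so its contrast with untagged cells also holds the difference between tagged and untagged lines. Tagged over untagged input of experiment 2 gave log2 changes of -0.31 for Sycp3, -0.29 for Ddx4 and -0.18 for Piwil2, none called. The part of that difference in the falls below was not tested. Against untagged input of experiment 2, a contrast that the rule for Stra8 and Piwil4 did not name, Sycp3 fell by 0.75 on the log2 scale (SE 0.12, adjusted p = 0.000123). It was at 17.0, 17.4 and 18.1 CPM in untagged and 9.58, 11.0 and 10.7 CPM in Ago2KO input. Ddx4, at 24.7, 29.4 and 26.4 CPM against 15.8, 19.2 and 20.6 CPM, fell by 0.53 (SE 0.10, adjusted p = 0.000377). Piwil2, at 36.5, 38.5 and 41.4 CPM against 26.3, 29.9 and 28.3 CPM, fell by 0.46 (SE 0.09, adjusted p = 0.000717). For these 3 genes every Ago2KO library was below every untagged library, and they were the genes called of 9 tested, where 15.1% of all genes were called. Groups did not overlap for 6 of the 9 genes, against 36.7% of all genes.

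Stra8 in Ago2KO input stood at 52.1, 63.8 and 71.1 CPM against 80.9, 75.3 and 78.0 CPM in untagged input, a log2 change of -0.32 that missed the threshold (95% interval -0.57 to -0.08, adjusted p = 0.0695). It passed without Ago2KO replicate 3 (-0.43, adjusted p = 0.0335), with the replicate block (adjusted p = 0.0306), and with only the 2 groups compared in the fit (adjusted p = 0.0032). Tdrd12 was at 22.2, 22.1 and 22.8 CPM against 19.5, 16.4 and 19.9 CPM, a log2 change of 0.27 (adjusted p = 0.0504), and was called under 5 other settings and without untagged replicate 3. Dppa3 had 20, 22 and 32 counts against 13, 8 and 14 counts, a log2 change of 1.00 (95% interval 0.28 to 1.73, adjusted p = 0.0544). Piwil4 (-0.17), Dazl (0.06) and Mael (0.12) did not pass the test.

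Against tagged input of experiment 2, Dazl in Ago2KO cells (51.2, 52.9 and 54.5 CPM against 65.6 to 72.6 CPM) fell by 0.40 (SE 0.07, adjusted p = 0.000855), close to the untagged libraries (46.2 to 54.5 CPM). Sycp3 fell by 0.43 (adjusted p = 0.0336), a call kept in 1 of 6 fits that leave out a library, the one without tagged replicate 2 (range of adjusted p 0.0377 to 0.161). These were 2 of 7 genes tested, and 6.96% of all genes were called. Ddx4 (-0.24, adjusted p = 0.15) and Piwil2 (-0.27, adjusted p = 0.0637) were not called against tagged input. The values of Stra8 (-0.51) and Piwil4 (-0.81) are given without a test. The primordial germ cell markers summed to 382 to 400 CPM in Ago2KO input, against 273 to 276 CPM in tagged and 229 to 239 CPM in untagged input, with Kit at 196 ± 15.0 CPM against 132 ± 11.1 CPM in tagged cells. Of the 7, 3 were called higher and 0 lower against tagged input, and 3 higher and 1 lower against untagged input. The list includes Dppa3, which was not called in either. Primitive endoderm markers summed to 58.7 to 67.2 CPM in Ago2KO input, 66.8 to 85.5 CPM in tagged and 72.1 to 81.7 CPM in untagged input. Of 9 such markers 4 were called lower against tagged (median -1.01) and 4 against untagged input (median -0.79), where 2.57% and 6.91% of all genes were called lower. Of 8 embryonic stem cell markers 5 were called higher against untagged and 3 against tagged input, where 8.23% and 4.38% of all genes were called higher. Against tagged input 1 of the 8 was called lower. The part of these markers in the results for the germline genes was not tested.

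The IP fraction addressed whether these mRNAs are held with Tnrc6a. No enrichment with the tagged protein was seen in experiment 1. There the fitted ratio of IP to input in tagged cells was 0.476 for Ddx4 and 0.572 for Piwil4, with the other genes between, while in untagged cells it ran from 0.766 (Sycp3) to 1.18 (Tdrd12). For comparison, Trim71 mRNA had a ratio of 4.23 in the same tagged cells and Tnrc6a mRNA a ratio of 294. Tag-specific enrichment (log2 IP over input, tagged minus untagged cells) was negative for all 8 genes and called for 7, where 28.8% of all genes were called lower and 56.9% in either direction. The median over the 8 genes was -0.98, and over all genes -0.10.

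Stra8 gave the most negative value of the 8: its IP level was 29.9, 32.1 and 31.8 CPM in tagged and 63.4, 56.8 and 60.6 CPM in untagged cells, although its input level was no lower in tagged cells. The IP groups did not overlap. The tag-specific value was -1.17 (SE 0.17, adjusted p = 3.76e-06), and Tdrd12 had -1.17 as well (SE 0.20, adjusted p = 3.12e-05). Ddx4 had -1.04, Piwil2 -0.99, Dazl -0.97, Piwil4 -0.81 and Mael -0.59 (adjusted p at most 0.0172). Sycp3 had -0.67 (adjusted p = 0.069), and was called without tagged input replicate 1 (-0.79, adjusted p = 0.0378) but stood at -0.32 without tagged input replicate 2. The Piwil4 call was lost without untagged input or IP replicate 2, tagged input replicate 3, or tagged IP replicate 1 or 2 (adjusted p up to 0.0903). Without tagged input replicate 2, all 7 calls held.

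In experiment 2 the ratios of IP to input in tagged cells were closer to 1, from 0.767 for Piwil4 to 0.931 for Tdrd12. Mael had a tag-specific value of -0.42 (SE 0.10, adjusted p = 0.00212), Ddx4 of -0.45 (SE 0.14, adjusted p = 0.0164) and Dazl of -0.29 (SE 0.11, adjusted p = 0.0432). These were the calls among 7 genes tested, where 8.77% of all genes were called lower and 27.7% in either direction. The Mael call held without each library in turn. The Ddx4 call was lost without untagged input replicate 1, tagged input replicate 3 or untagged IP replicate 2 (adjusted p 0.0536, 0.0559 and 0.0687), and the Dazl call in 8 of 12 such fits (adjusted p up to 0.138). Stra8 (-0.19) and Piwil4 (-0.33) are given without a test, and Tdrd12 had -0.06 (95% interval -0.33 to 0.22). The values of Tdrd12, Piwil2 and Dazl differed between the experiments in the joint fit, as did those of 28.5% of all genes.

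**Figure D4:**
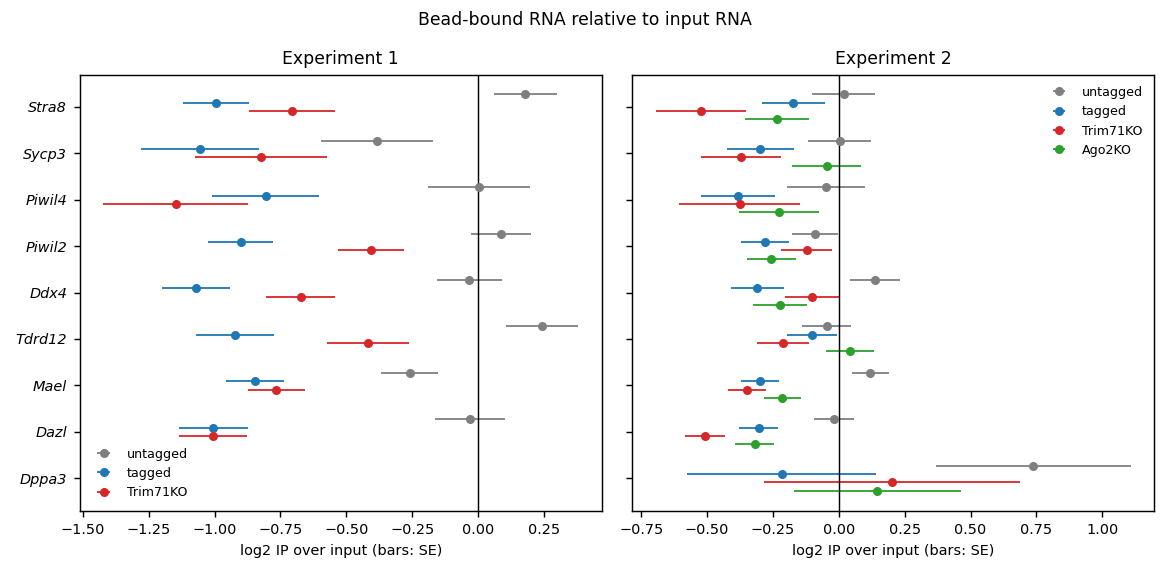
The fitted log2 ratio of IP to input RNA for each gene and line, in experiment 1 (left) and experiment 2 (right). Points are estimates from 3 IP and 3 input libraries and bars are SE. Tagged and Trim71KO cells of experiment 1 lie below 0 for every gene, while in experiment 2 most values lie between -0.52 and 0.14, and Dppa3 has the widest bars.

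Neither knockout label came with a called change in the IP to input ratio of these genes. Trim71-dependent enrichment in experiment 1, the ratio in Trim71KO minus that in tagged cells, was called by edgeR for 0 of 8 genes, by DESeq2 also for 0, and had an unadjusted p under 0.05 for 3. Of all genes 3.74% were called, and the values were 0.50 for Tdrd12 (adjusted p = 0.254), 0.49 for Piwil2 (adjusted p = 0.142) and 0.40 for Ddx4 (adjusted p = 0.313). Without Trim71KO IP replicate 1 these 3 were called (0.69, 0.58 and 0.60, adjusted p = 0.0386, 0.0428 and 0.0372), and without tagged input replicate 2 Piwil2 alone was (0.68, adjusted p = 0.0144). Stra8 had 0.29 (95% interval -0.14 to 0.71), so its IP level of 4.04, 4.67 and 7.65 CPM in Trim71KO cells was low together with its input. In experiment 2 the values, given as a description, ran from -0.35 (Stra8) to 0.42 (Dppa3). Ago2-dependent enrichment in experiment 2 was called for 0 of 7 genes by edgeR and by DESeq2, with 0 at an unadjusted p under 0.05, where 4.16% of all genes were called. Its values ran from -0.02 (Dazl, 95% interval -0.23 to 0.20) to 0.36 (Dppa3, -0.62 to 1.35) among the genes tested.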

How the data were processed

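Read counts per gene were deposited by the authors as 1 table per experiment, with RPKM values and a gene length beside them, and the counts were used as deposited. The authors' RPKM values, per the file headers, were not used for any result. The gene length column (other unit, bases), deposited by the authors and named after QuasR per the file headers, served for levels per kilobase. The submitters' processing notes name bcl2fastq 2.20, STAR 2.7.3a and the builds GRCm38 and mm10, without roles. The counting tool, annotation and use of strand are not given in the sources used here, so values of genes that overlap others or have near-identical copies are uncertain.

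Counts were tested in R 4.3.3 with edgeR 4.0.16 (TMM, filterByExpr, quasi-likelihood test, a mean per group, all groups of an experiment in 1 fit). All 8 and 9 genes passed the filter, which left 18772 and 19778 genes. Calls are Benjamini-Hochberg adjusted p under 0.05 over all of them. CPM is the deposited count scaled to the TMM-adjusted library size. Experiments were fitted separately, and jointly for differences between them (18620 genes). No library repeated another: the chi-square per gene within groups was 2.87 to 64.1 over 42 pairs. Groups came from titles and descriptions. Alternatives were RLE size factors, library size alone, no filter, replicate blocks, only the compared groups, DESeq2 1.42.0 and leaving out each library. The tests were checked on simulated counts. The genes and lists were chosen with earlier results of these data known. Named in the text are the 9 genes, Trim71, Ago2 and Tnrc6a, up to 3 called genes each way per list in Trim71KO input of experiment 1, and the 3 nearest patterns to Stra8 and Piwil4. Rarg and Kit levels and the values of Rnf17 were added after they were seen.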

Additional observations from a re-analysis of the deposited data

Results flagged for a closer look

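The difference in Dazl input RNA between the tagged and the untagged line was not the same in both experiments. The log2 change, tagged over untagged, was 1.15 in experiment 1 and 0.46 in experiment 2, a difference of -0.67 (SE 0.13, adjusted p = 0.00265) in a joint edgeR fit of 18620 genes, of which 2.89% were called. The tagged libraries were higher in both experiments.

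Tag-specific enrichment differed for 3 genes, each less negative in experiment 2. The difference, experiment 2 minus experiment 1, was 1.00 for Tdrd12 (adjusted p = 0.00154), 0.69 for Piwil2 (adjusted p = 0.00938) and 0.58 for Dazl (adjusted p = 0.0245), where 28.5% of all genes were called in this comparison. Mael had 0.06 (adjusted p = 0.829). Stra8, Piwil4 and Dppa3 were not tested for such a difference.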

How the results depend on the processing

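The 6 calls of lower input RNA in Trim71KO cells of experiment 1 (Stra8, Piwil4, Piwil2, Ddx4, Sycp3 and Tdrd12) held under every alternative run and without each library in turn. Counts of called genes moved elsewhere, and the cause was not tested. With library size alone, 1 gene instead of 2 was called between tagged and untagged input in experiment 1, 1 instead of 2 in experiment 2, and 5 instead of 3 in tag-specific enrichment of experiment 2. With the compared groups alone in the fit, 6 genes instead of 3 were called in Ago2KO against untagged input and 4 instead of 2 against tagged input. With the replicate block within fraction, the counts were 1 for tagged against untagged input of experiment 1 and 5 for Ago2KO against untagged input. The main fit did not pair samples by replicate number. Deviations from the group mean in same-numbered libraries correlated across lines at -0.03 to 0.04 in input of experiment 1 and -0.07 to 0.12 in experiment 2. In IP these values were -0.04 to 0.14 and -0.12 to 0.26. IP and input of the same line and number correlated at -0.09 to 0.05 and -0.05 to 0.09. With 3 libraries per group, low values cannot exclude pairing. The Dazl call in tag-specific enrichment of experiment 2 was lost with the lysate block (adjusted p = 0.0559) and with the compared groups alone in the fit (adjusted p = 0.0539).

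Leaving out 1 library at a time gave 1 to 2 calls for tagged against untagged input in experiment 1 and 1 to 1 in experiment 2, 0 to 3 for Trim71-dependent enrichment in experiment 1, 1 to 4 for tag-specific enrichment in experiment 2, and 1 to 2 for Ago2KO against tagged input.

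Signs turned only among values that were not called or not tested. For Dazl these were Trim71-dependent enrichment in experiment 1 (0.031 with RLE size factors, 0.11 with library size alone, 0.0014 without a filter, 0.032 with DESeq2), Trim71KO input in experiment 1 (0.043 with library size alone, 0.0029 with the compared groups alone) and Ago2-dependent enrichment (0.091 with library size alone). Tdrd12 in tagged against untagged input of experiment 2 was 0.0038 with library size alone. Stra8 in Ago2-dependent enrichment, a value without a test, ran from -0.084 to 0.048 under the other settings. Low counts limit Dppa3 most.

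Among fits that leave out 1 library, the log2 values with a turned sign ran as follows. In tagged versus untagged input, experiment 1, they were -0.0015 to 0.20 for Piwil2. In Trim71-dependent enrichment, experiment 1, they were -0.079 to 0.17 for Dazl, -0.00066 to 0.55 for Sycp3 and -0.00045 to 0.27 for Mael. In Trim71KO versus tagged input, experiment 1, they were -0.11 to 0.14 for Dazl and -0.15 to 0.016 for Mael. In tagged versus untagged input, experiment 2, they were -0.10 to 0.036 for Tdrd12. In Ago2KO versus untagged input, experiment 2, they were -0.00067 to 0.12 for Dazl. In tag-specific enrichment, experiment 2, they were -0.11 to 0.030 for Tdrd12. In Ago2-dependent enrichment, experiment 2, they were -0.066 to 0.027 for Dazl, -0.10 to 0.14 for Piwil2 and -0.037 to 0.17 for Ddx4. Stra8, given without a test in that comparison, ran from -0.24 to 0.12.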
